A study of Mus musculus with 4 samples.

Results

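Neuronal, glial and myelin genes were followed in RNA from the bones of the mouse skull vault. A list of 32 genes, fixed by name, was looked up among the 23946 gene symbols of the deposited tables, and all 32 were present. They comprise 4 astrocyte genes, 9 genes shared by most neurons, 3 neurofilament genes, 6 genes of transmitter synthesis, vesicle loading and the postsynapse of central neurons, 4 oligodendrocyte genes, 4 genes shared by oligodendrocytes and Schwann cells, and 2 genes listed for Schwann cells. Frontal bone, which derives from the neural crest, and parietal bone, which derives from paraxial mesoderm, were taken from wild-type and *Twist1*+/- mice at 21 days after birth. Both strains carried the C57BL/6J background, 12 mice were used per strain, without a statement on whether libraries pooled mice, and every *Twist1*+/- animal lacked 1 functional copy of *Twist1* in all of its cells. The text of the study describes the bones used for RNA as pericranium, bone plate and dura mater together. Poly(A) RNA of each genotype and bone was sequenced, and expression was given as FPKM, which is scaled to transcript length and to the number of mapped fragments. The 4 libraries analysed here are 1 per genotype and bone, so differences are given without replicate errors or p-values.

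Neurons, astrocytes and oligodendrocytes make up the brain and spinal cord, and their cell bodies are not part of bone. Bone and its coverings are reached by peripheral nerves, in which Schwann cells wrap the axons, while the cell bodies of those axons lie in ganglia outside the bone. Central and peripheral myelin share several proteins, but oligodendrocytes make Mog and Mobp, and Schwann cells of myelinated nerves make Prx. Glutamate and GABA are the main excitatory and inhibitory transmitters of the brain. The olfactory bulb, the part of the brain that lies behind the nose, is covered by the front of the skull vault.

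*Twist1*, the targeted gene, was at 59.0 FPKM in the frontal and 52.5 FPKM in the parietal bone of wild-type mice, and at 30.4 FPKM in *Twist1*+/- frontal bone. The library labelled *Twist1*+/- parietal bone held 50.7 FPKM of *Twist1*, near the wild-type parietal level and not reduced as its label implies, so it is named by its label. The bone genes *Bglap*, *Spp1* and *Ibsp*, which encode proteins of the mineralised matrix, were at least at 278 FPKM in every library, and none of the 8 bone genes checked was below 25.3 FPKM. Depth is not given by FPKM values and was estimated from the most frequent ratio among genes of very low expression. By this estimate 1 read was worth 1.73 times as many FPKM in wild-type parietal as in wild-type frontal bone. It was worth 1.25 times as many in labelled *Twist1*+/- parietal as in *Twist1*+/- frontal bone. The parietal libraries were within 1.02 times of each other, and *Twist1*+/- frontal bone was at 1.28 times wild-type frontal bone. Only 4.11% to 6.83% of the genes used lay within 0.03 log2 units of the most frequent ratio, so these estimates are rough. If they hold, values under 1 FPKM in the parietal libraries rest on fewer reads than the same values in the frontal libraries.

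The promoters of 21 of the 32 genes were found among the RefSeq promoters of GRCm38.p6, in 28 windows, and were read over the 250 bases before each annotated start. Windows are shown for *Gad1* and *Gad2*, the genes with the largest FPKM ratios between the wild-type bones, for *Tubb3*, and for the oligodendrocyte gene *Mobp*. Capitals mark matches, on either strand, to CAGCACC (the left end of the RE1 element, which the neuronal repressor REST binds), to ACAAAG (a core that SOX factors such as Sox10 can bind), and to the RE1 core, GCACC and GGACAG separated by any 2 bases. CAGCACC and the RE1 core share the letters GCACC and can overlap, and the core was added after the *Gad2* sequence had been read. The windows lie at chr2:70561879-70562128 (*Gad1*), chr2:22622077-22622326 (*Gad2*), chr8:123411303-123411552 (*Tubb3*) and chr9:120149492-120149741 (*Mobp*), all on the forward strand.
Gad1: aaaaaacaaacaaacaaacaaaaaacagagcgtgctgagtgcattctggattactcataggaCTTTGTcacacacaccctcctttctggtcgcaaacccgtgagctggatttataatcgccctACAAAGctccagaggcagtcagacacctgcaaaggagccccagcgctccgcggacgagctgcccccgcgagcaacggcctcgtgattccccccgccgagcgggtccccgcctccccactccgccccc
Gad2: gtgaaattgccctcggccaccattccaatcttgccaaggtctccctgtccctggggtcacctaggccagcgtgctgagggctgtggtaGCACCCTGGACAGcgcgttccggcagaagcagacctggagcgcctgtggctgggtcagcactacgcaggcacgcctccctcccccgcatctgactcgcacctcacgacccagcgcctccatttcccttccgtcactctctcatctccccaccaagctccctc
Tubb3: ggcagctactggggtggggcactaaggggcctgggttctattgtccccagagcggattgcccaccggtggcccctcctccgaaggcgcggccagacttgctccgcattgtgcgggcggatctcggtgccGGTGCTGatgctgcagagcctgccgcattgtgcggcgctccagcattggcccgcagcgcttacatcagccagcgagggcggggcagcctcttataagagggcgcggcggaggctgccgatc
Mobp: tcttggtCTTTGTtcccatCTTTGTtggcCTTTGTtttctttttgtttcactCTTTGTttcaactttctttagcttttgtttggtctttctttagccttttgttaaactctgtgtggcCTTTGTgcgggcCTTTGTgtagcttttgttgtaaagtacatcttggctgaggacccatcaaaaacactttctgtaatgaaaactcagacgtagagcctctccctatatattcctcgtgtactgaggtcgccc

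The *Mobp* window held 6 matches to ACAAAG, all on the reverse strand and between -243 and -120 from the start. It was the only window with so many among 32851 windows of the same length, of which 16.5% held at least 1 match. Matches to ACAAAG were found in 9 of the 28 member windows. They belong to 8 of the 21 members with a window, among them *Cnp* and *Mag*, and also neuronal genes such as *Gad1*, *Rbfox3* and *Syt1*. The *Mag* windows with a match overlap and hold the same site. The RE1 core was found in *Gad2* alone among these 21 members, starting at -162, and in 25 of the 32851 windows (0.0761%). CAGCACC was found in *Tubb3* alone among them, starting at -121, and in 5.73% of all windows. A match is a match of letters and gives no measure of binding.

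All 32 genes reached 1 FPKM in at least 1 library, 24 reached it in all 4, and none was listed at 0 in any. The summed FPKM of the 32 genes was 745, 289, 727 and 609 in wild-type frontal, wild-type parietal, *Twist1*+/- frontal and labelled *Twist1*+/- parietal bone, and this order of libraries is kept wherever 4 values follow each other. A few genes weigh heavily in the sums, and *Mbp* alone held 270 FPKM in labelled *Twist1*+/- parietal bone. The median of the 32 genes was 16.6, 3.05, 13.9 and 6.40 FPKM. Wild-type parietal bone had the lowest value for 24 of the 32 genes, whereas it had the lowest value for 35.1% of the 14760 genes that reached 1 FPKM anywhere. The value in labelled *Twist1*+/- parietal bone lay between those of the wild-type bones, above parietal and below frontal, for 21 genes. The share of all genes with this order was not computed. By any amount, 28 of the 32 genes were lower in wild-type parietal than in wild-type frontal bone, and the order can arise only for such genes. In bulk RNA, fewer cells of a type and less RNA per cell cannot be told apart, and this holds for each difference given here.

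**Figure D1:**
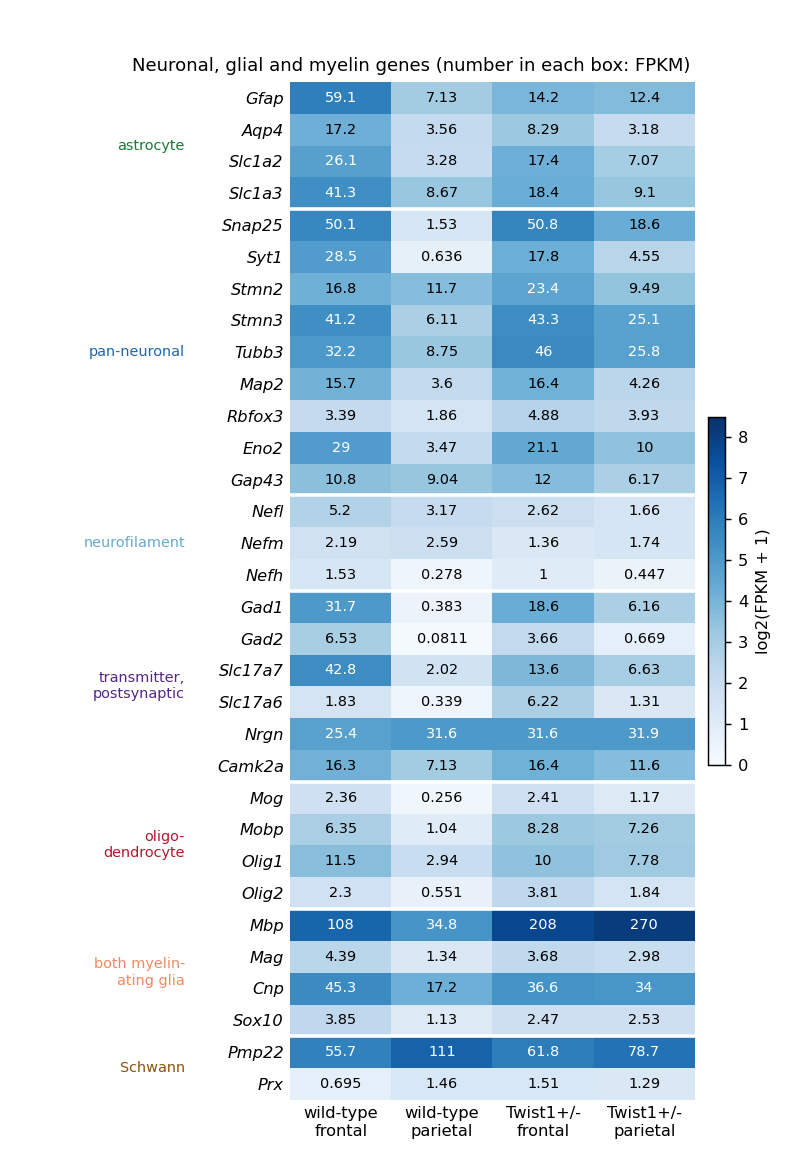
FPKM of each of the 32 genes (rows, grouped by class) in the 4 libraries (columns), with the colour giving log2(FPKM + 1) and the number in each box giving FPKM. The wild-type parietal column is the palest for 24 genes, *Nrgn* is near the same level throughout, and *Pmp22* is highest in wild-type parietal bone.

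To compare the wild-type bones, a gene was called when one library exceeded the other by more than 3-fold in FPKM and held at least 1 FPKM. By this rule 22 of the 32 genes were lower in wild-type parietal than in wild-type frontal bone and none was higher. Over all genes, 9.2% of the 14214 at or above 1 FPKM in either library were lower and 4.07% were higher. The median log2(FPKM + 1) difference of the 32 genes was -1.51, that of all genes tested -0.01. The called genes included all 4 astrocyte genes, all 4 oligodendrocyte genes and 3 of the 4 genes of both myelinating glia, but neither Schwann cell gene.

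The enzymes that make GABA differed most by ratio of FPKM. *Gad1*, on chromosome 2 of mm9 from 70391129 to 70440071, was at 31.7, 0.383, 18.6 and 6.16 FPKM. Its value in wild-type parietal bone was 82.7-fold lower than in wild-type frontal bone (log2 ratio -6.37). *Gad2*, the second GABA-making enzyme, from 22477725 to 22549394 on the same chromosome, was at 6.53, 0.0811, 3.66 and 0.669 FPKM, a difference of 80.5-fold between the wild-type bones. Frontal libraries were high and the wild-type parietal library was lowest for both enzymes, and both parietal values of *Gad2* were below 1 FPKM. The rank of *Gad2* rests on its very low wild-type parietal value. As a difference of log2(FPKM + 1), *Gad1* stayed first at -4.56. *Gad2*, at -2.80, fell behind *Snap25* (-4.34), *Syt1* (-4.17), *Slc17a7* (-3.86) and *Gfap* (-2.89).

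The transporters that load glutamate into synaptic vesicles were also lower in wild-type parietal bone. *Slc17a7*, the transporter of cortical and olfactory bulb neurons (chromosome 7 of mm9, from 52419291 to 52431508), was at 42.8, 2.02, 13.6 and 6.63 FPKM, 21.1-fold lower in wild-type parietal than in wild-type frontal bone. *Slc17a6*, its relative in thalamus, brainstem, sensory ganglia and olfactory sensory neurons, was at 1.83, 0.339, 6.22 and 1.31 FPKM and 5.42-fold lower. The libraries did not rank alike for these relatives, wild-type frontal bone being highest for *Slc17a7* and *Twist1*+/- frontal bone for *Slc17a6*. *Slc17a6* lost its call when 1 FPKM was added to both values before the ratio was taken (log2 ratio -1.08).

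The postsynaptic genes of the same class were closer to level. *Nrgn*, a calmodulin-binding protein of forebrain neurons that platelets also contain, was at 25.4, 31.6, 31.6 and 31.9 FPKM. No pair of libraries differed by more than 1.24-fold in the comparisons made, and the small excess in wild-type parietal over frontal bone turned to a deficit after scaling to *Gapdh* (log2 ratio -0.13). *Camk2a*, a kinase of excitatory synapses, was at 16.3, 7.13, 16.4 and 11.6 FPKM. Its log2 ratio between the wild-type bones, -1.19, passed 3-fold when the libraries were scaled to *Gapdh*.

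Among genes shared by most neurons, 6 of 9 were called lower in wild-type parietal bone. *Syt1*, the calcium sensor of synaptic vesicles, was at 28.5, 0.636, 17.8 and 4.55 FPKM, 44.9-fold lower than in wild-type frontal bone. *Snap25*, which drives fusion of those vesicles (chromosome 2 of mm9, from 136539189 to 136608164), was at 50.1, 1.53, 50.8 and 18.6 FPKM, 32.8-fold lower. Both frontal libraries exceeded both parietal libraries for each of these genes.

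*Eno2*, the neuronal enolase, was at 29.0, 3.47, 21.1 and 9.998 FPKM, 8.36-fold lower in wild-type parietal than in wild-type frontal bone. *Stmn3*, a microtubule-regulating stathmin, was at 41.2, 6.11, 43.3 and 25.1 FPKM and 6.74-fold lower. Both were highest in the frontal libraries, as were the cytoskeletal genes that follow. *Map2*, a microtubule protein of dendrites, was at 15.7, 3.60, 16.4 and 4.26 FPKM and 4.36-fold lower. *Tubb3*, the neuronal beta-tubulin, was at 32.2, 8.75, 46.0 and 25.8 FPKM and 3.67-fold lower. These genes thus differed by less than the vesicle genes *Syt1* and *Snap25*.

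The remaining genes of this class, among them the genes of growing axons, were closest to level between the wild-type bones. *Gap43*, the growth-cone protein, was at 10.8, 9.04, 12.0 and 6.17 FPKM (log2 ratio -0.26), and *Stmn2*, a stathmin of growing axons, was at 16.8, 11.7, 23.4 and 9.49 FPKM (log2 ratio -0.52). *Rbfox3*, the nuclear antigen NeuN of mature neurons, was at 3.39, 1.86, 4.88 and 3.93 FPKM (log2 ratio -0.86). None of these 3 genes was called in any of the 4 comparisons.

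The neurofilament subunits, which set the calibre of axons, stayed at or below 5.20 FPKM in every library. The light subunit *Nefl* was at 5.20, 3.17, 2.62 and 1.66 FPKM and the medium subunit *Nefm* at 2.19, 2.59, 1.36 and 1.74 FPKM. Between the wild-type bones the log2 ratio, parietal over frontal, was -0.72 for *Nefl* and 0.24 for *Nefm*, the latter turning to -0.20 after scaling to *Gapdh*. Annotated exons of *Nefl* and *Nefm* overlap on opposite strands, the libraries were stranded, and the strand setting used in quantification is not given in the sources used here. The heavy subunit *Nefh* was at 1.53, 0.278, 1.002 and 0.447 FPKM and was 5.496-fold lower in wild-type parietal bone, a call that was lost when 1 FPKM was added.

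Astrocyte genes were lower in wild-type parietal bone without exception. *Gfap*, the intermediate filament of astrocytes (chromosome 11 of mm9, from 102748650 to 102762226), was at 59.1, 7.13, 14.2 and 12.4 FPKM, 8.29-fold lower than in wild-type frontal bone. The glutamate transporter *Slc1a2* was at 26.1, 3.28, 17.4 and 7.07 FPKM and 7.96-fold lower. Both genes were highest in wild-type frontal and lowest in wild-type parietal bone. The other glutamate transporter, *Slc1a3*, was at 41.3, 8.67, 18.4 and 9.10 FPKM and 4.76-fold lower. The water channel *Aqp4* was at 17.2, 3.56, 8.29 and 3.18 FPKM and 4.84-fold lower. For each of the 4 genes wild-type frontal bone held the highest value and *Twist1*+/- frontal bone the next.

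Oligodendrocyte genes were lower as well. *Mog*, on the outer face of central myelin, was at 2.36, 0.256, 2.41 and 1.17 FPKM, 9.21-fold lower in wild-type parietal than in wild-type frontal bone. *Mobp*, a central myelin protein whose promoter is printed above, was at 6.35, 1.04, 8.28 and 7.26 FPKM and 6.11-fold lower. The lineage transcription factors *Olig1* and *Olig2* were at 11.5, 2.94, 10.04 and 7.78 FPKM and at 2.30, 0.551, 3.81 and 1.84 FPKM, differences of 3.92-fold and 4.17-fold. Wild-type parietal bone held the lowest value of each of the 4 genes, and the other 3 libraries were closer to each other than to it in ratio.

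Of the genes shared by both myelinating glia, *Mbp* had the highest level of all 32 genes in every library except wild-type parietal bone, where *Pmp22* exceeded it. *Mbp*, a major protein of central and peripheral myelin whose locus also gives golli transcripts in blood-forming cells, was at 108, 34.8, 208 and 270.0 FPKM, 3.099-fold lower in wild-type parietal than in wild-type frontal bone. Its FPKM value does not separate the myelin from the golli transcripts. *Cnp*, an enzyme of the myelin cytoplasm, was at 45.3, 17.2, 36.6 and 34.0 FPKM (log2 ratio -1.39), *Mag*, an adhesion molecule next to the axon, at 4.39, 1.34, 3.68 and 2.98 FPKM (log2 ratio -1.71), and *Sox10*, a transcription factor of both glia, at 3.85, 1.13, 2.47 and 2.53 FPKM (log2 ratio -1.77). *Mag* and *Sox10* were called and *Cnp* was not, although it passed 3-fold after scaling to *Gapdh*. Adding 1 FPKM to both values ended the calls of *Mog*, *Olig2*, *Mag*, *Sox10*, *Nefh* and *Slc17a6* between the wild-type bones and left 16, and the GC subtraction described below ended that of *Mag*.

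The Schwann cell genes ran the other way. *Pmp22*, a peripheral myelin protein that many mesenchymal cells also express (chromosome 11 of mm9, from 62942484 to 62973049), was at 55.7, 111, 61.8 and 78.7 FPKM and was 1.99-fold higher in wild-type parietal than in wild-type frontal bone. *Prx*, a scaffold of peripheral myelin, was at 0.695, 1.46, 1.51 and 1.29 FPKM and 2.10-fold higher. Neither difference passed 3-fold, and wild-type frontal bone had the lowest value of both. Of 8 further Schwann cell genes, none was higher and 2 were lower by the 3-fold rule, *Cdh19* and *Erbb3*, both at or below 1.69 FPKM. These were also lower in labelled *Twist1*+/- parietal than in *Twist1*+/- frontal bone, whereas *Gldn* was higher in *Twist1*+/- frontal than in wild-type frontal bone. Among the highest of that list were *Ncmap* at 0.944, 2.54, 2.66 and 2.77 FPKM and *Drp2* at 1.86, 1.37, 1.54 and 0.967 FPKM.

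**Figure D2:**
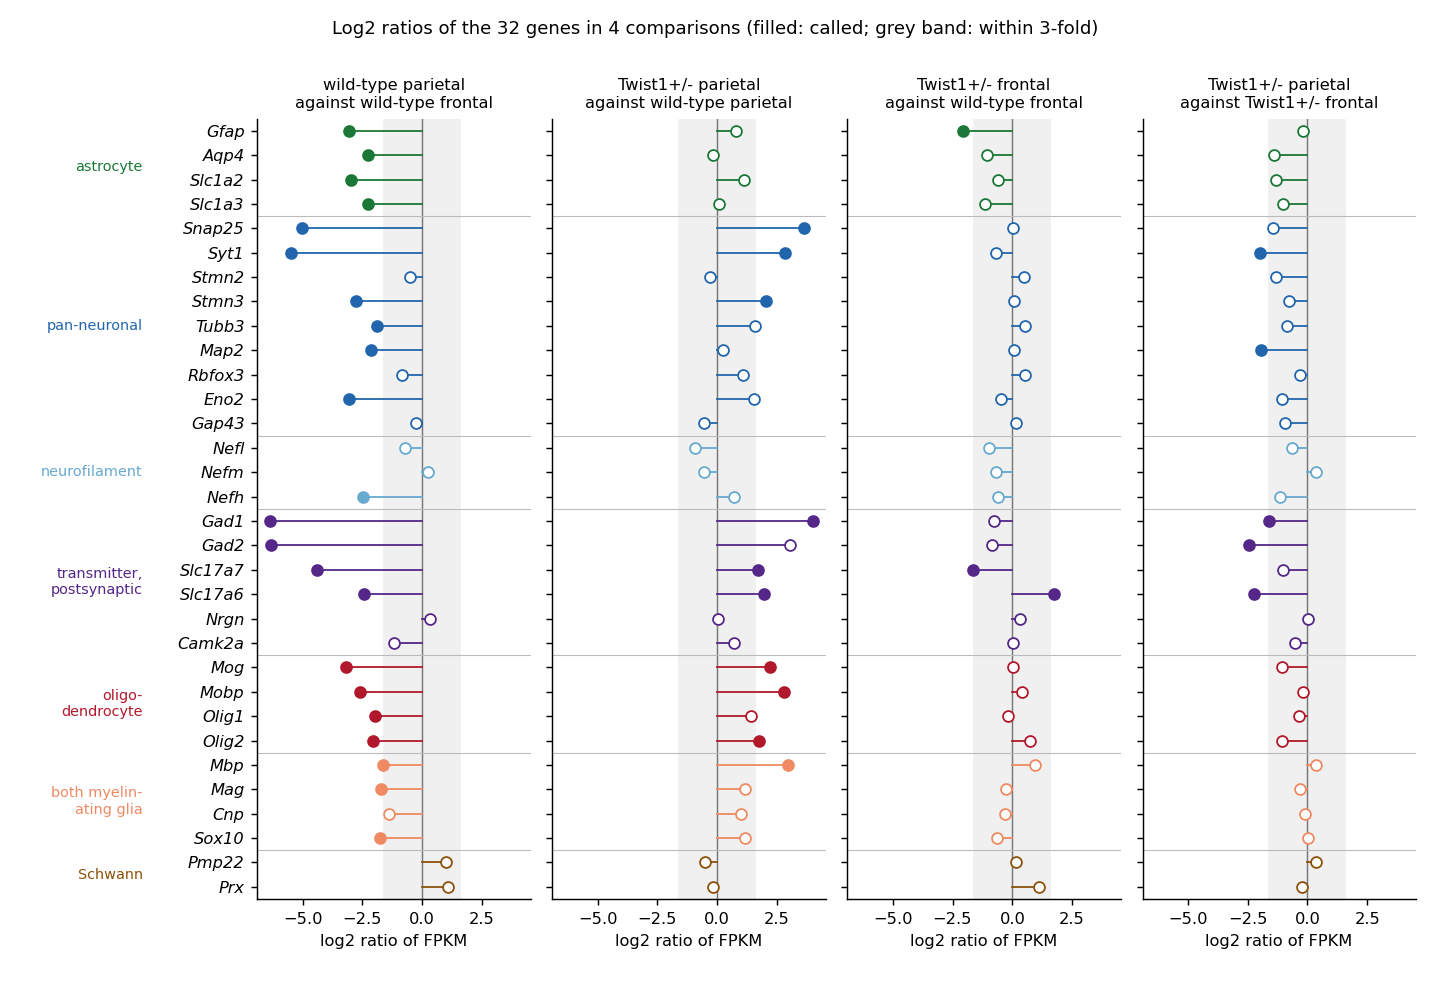
Log2 ratio of FPKM for each of the 32 genes (rows, grouped and coloured by class) in the 4 comparisons (panels), with filled points for called genes and a grey band for ratios within 3-fold. In the first panel 22 filled points lie on the left, in the second 10 lie on the right, and the panels of the frontal bones and of the bones of *Twist1*+/- mice hold 3 and 5.

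The library labelled *Twist1*+/- parietal bone was next compared with wild-type parietal bone. *Twist1* itself was near the same level in both, so differences are given by label and an effect of *Twist1* haploinsufficiency was not tested. Of the 32 genes 10 were higher and none was lower by the same rule, against 5.25% higher and 2.94% lower among the 13914 genes at or above 1 FPKM in either library. The 10 genes were *Snap25*, *Syt1*, *Stmn3*, *Gad1*, *Slc17a7*, *Slc17a6*, *Mbp*, *Mog*, *Mobp* and *Olig2*. All of these were also among the 22 that were lower in wild-type parietal than in wild-type frontal bone, and the comparisons share the wild-type parietal library. The median log2(FPKM + 1) difference was 0.79 for the 30 members at or above 1 FPKM in either library, and -0.05 for all genes tested.

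*Gad1* was 16.1-fold higher in labelled *Twist1*+/- parietal than in wild-type parietal bone, *Snap25* 12.2-fold, and *Mbp* 7.76-fold. *Syt1* was 7.16-fold, *Mobp* 6.996-fold, *Mog* 4.58-fold and *Stmn3* 4.12-fold higher. The smallest called differences were those of *Slc17a6* (3.88-fold), *Olig2* (3.33-fold) and *Slc17a7* (3.28-fold). Apart from *Mbp*, whose value in labelled *Twist1*+/- parietal bone was the highest of the 4 libraries, and *Mobp*, which was higher there than in wild-type frontal bone, the called genes stayed below their wild-type frontal level.

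Of the members not called, *Gad2* had a log2 ratio of 3.04 but stayed below 1 FPKM in both parietal libraries. *Tubb3* (1.56) and *Eno2* (1.52) lay just under 3-fold and passed it after scaling to the median ratio or to *Gapdh*. *Olig1* (1.40) passed it after scaling to *Gapdh*. *Sox10*, *Mag*, *Rbfox3*, *Cnp*, *Camk2a* and *Map2* had log2 ratios from 1.16 down to 0.24.

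No astrocyte gene was called in this comparison, although all 4 had differed between the wild-type bones. The log2 ratio was 1.11 for *Slc1a2*, 0.79 for *Gfap* and 0.07 for *Slc1a3*. For *Aqp4* it was -0.16, which turned to 0.23 after scaling to *Gapdh* and to 0.41 after the GC subtraction. Neurofilament, Schwann cell and axon growth genes were not called either, with log2 ratios between -0.93 (*Nefl*) and 0.68 (*Nefh*). Among these, the signs of *Stmn2* and *Prx* turned after scaling to *Gapdh*, and that of *Stmn2* also after the GC subtraction. *Nrgn* had a log2 ratio of 0.01, which became -0.51 after the GC subtraction. Whether the astrocyte genes differ from the neuronal genes in their response to genotype was not tested.

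Log2 ratios moved with base composition in both comparisons that hold the labelled *Twist1*+/- parietal library. The median log2 ratio of all genes at or above 1 FPKM in both parietal libraries was -0.58 in the lowest of 20 groups by GC content and 0.61 in the highest, and between the bones of *Twist1*+/- mice it was -0.43 and 0.42. Between the wild-type bones it was 0.11 and -0.15, and between the frontal bones it was -0.01 and 0.08. The members had a median GC content of 53.3%, from 40.7% (*Aqp4*) to 61.7% (*Sox10*), against 50.6% for genes at or above 1 FPKM in any library. After subtraction of the median of each GC group 7 of the 32 genes were called between the parietal bones, *Slc17a7*, *Stmn3* and *Olig2* having dropped below 3-fold. *Gad1* (log2 ratio 4.36) and *Snap25* (4.17) kept their calls. Their GC contents are 48.4% and 43.4%. Adding 1 FPKM left 6 calls and ended those of *Slc17a7*, *Slc17a6*, *Mog* and *Olig2*, and a floor of 5 FPKM also left 6.

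**Figure D3:**
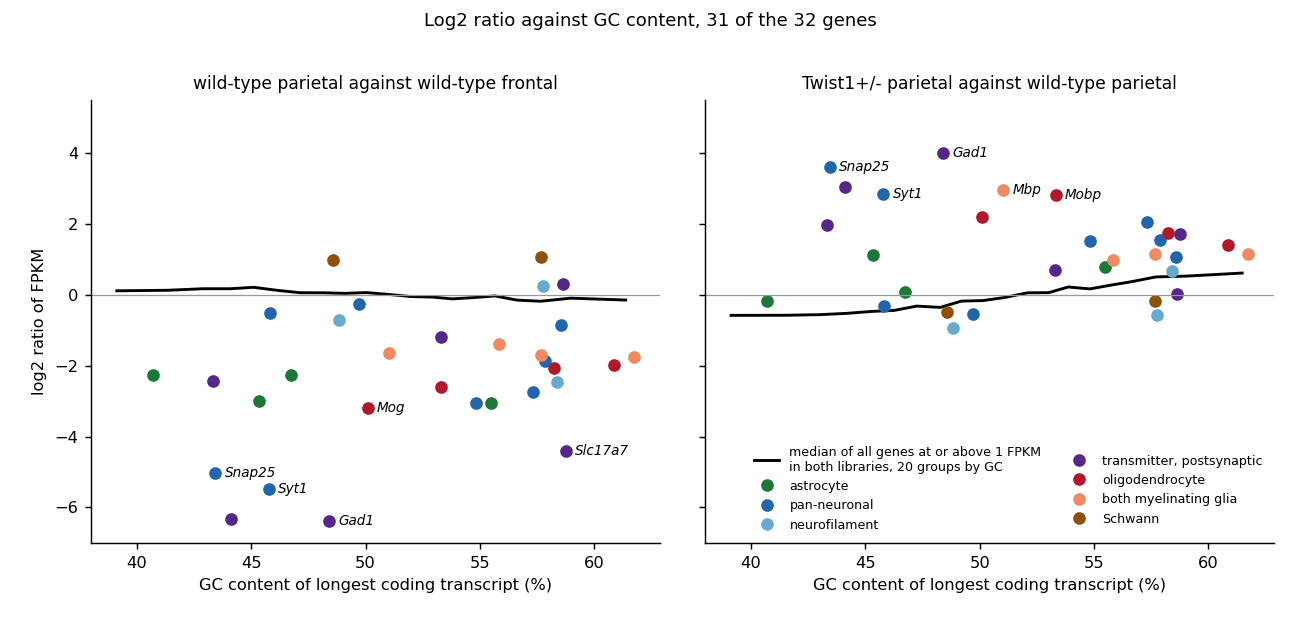
Log2 ratio of FPKM against the GC content (%) of the longest coding transcript for 31 of the 32 genes (points, coloured by class), for the wild-type bones (left) and the parietal bones (right), with the median of all genes in 20 GC groups as a line. The line is nearly flat on the left and climbs from -0.58 to 0.61 on the right, while *Gad1*, *Snap25* and *Syt1* lie far from it in both panels.

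Between the frontal bones the set as a whole was level. Of the 32 genes 1 was higher and 2 were lower in *Twist1*+/- frontal than in wild-type frontal bone, against 3.17% higher and 0.725% lower of the 14341 genes at or above 1 FPKM in either library, and the median log2(FPKM + 1) difference was -0.08. *Gfap* was 4.16-fold lower in *Twist1*+/- frontal bone, from 59.1 to 14.2 FPKM. *Slc17a7* was 3.14-fold lower, from 42.8 to 13.6 FPKM. *Slc17a6* was 3.39-fold higher, from 1.83 to 6.22 FPKM. The calls of both transporters were lost when 1 FPKM was added, with log2 ratios of -1.58 and 1.35.

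The other 3 astrocyte genes had log2 ratios of -1.16 (*Slc1a3*), -1.05 (*Aqp4*) and -0.58 (*Slc1a2*) between the frontal bones, so all 4 lay on the same side without passing 3-fold apart from *Gfap*. *Snap25*, *Stmn3*, *Map2*, *Camk2a* and *Mog* differed by at most 1.05-fold between the frontal bones, and their signs turned after scaling to *Gapdh*. *Gad1* and *Gad2* had log2 ratios of -0.76 and -0.83. *Mbp* had a log2 ratio of 0.95. For *Prx* the value was 1.12 and for *Pmp22* it was 0.15.

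Between the bones of *Twist1*+/- mice, 5 of the 32 genes were lower in labelled parietal than in frontal bone and none was higher, against 3.24% lower and 0.846% higher of 14305 genes. They were *Gad2* (5.47-fold), *Slc17a6* (4.73-fold), *Syt1* (3.90-fold), *Map2* (3.86-fold) and *Gad1* (3.03-fold). All 5 are neuronal genes. The 10 astrocyte, oligodendrocyte and shared myelin genes other than *Aqp4* and *Slc1a2* had log2 ratios from -1.05 (*Olig2*) to 0.38 (*Mbp*), with *Aqp4* at -1.38 and *Slc1a2* at -1.30. *Sox10*, at 0.03, turned to -0.39 after the GC subtraction. The *Gad1* call lay at the threshold and was lost when 1 or 0.1 FPKM was added, after scaling to *Gapdh* and after the GC subtraction, and that of *Gad2* was lost when 1 FPKM was added.

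The members did not keep a fixed proportion to each other, as ratios of FPKM within a library show. The ratio of *Gad1* to *Gad2* was 4.85, 4.72, 5.09 and 9.21, close to level in 3 libraries and higher in labelled *Twist1*+/- parietal bone, where *Gad2* was at 0.669 FPKM. The ratio of *Snap25* to *Gfap* was 0.849, 0.214, 3.58 and 1.51, lowest in wild-type parietal and highest in *Twist1*+/- frontal bone. The ratio of *Slc17a6* to *Slc17a7* was 0.0429, 0.167, 0.457 and 0.198. The ratio of *Mbp* to *Mog* was 45.7, 136, 86.0 and 230.2, higher in each parietal library than in the frontal library of its genotype. The ratio of *Nefm* to *Snap25* was 0.0437, 1.69, 0.0267 and 0.0932, so that in wild-type parietal bone alone the neurofilament gene exceeded the vesicle gene. Each ratio rests on 1 library and carries no error.

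Further genes of the same cell types were read from lists that do not contain the members. Of 14 further synaptic genes, 9 were lower in wild-type parietal than in wild-type frontal bone and 7 were higher in labelled *Twist1*+/- parietal than in wild-type parietal bone, with no call in the other direction. None was called between the frontal bones or between the bones of *Twist1*+/- mice. Among the highest were *Vamp2* at 101, 43.8, 97.6 and 72.4 FPKM and *Syp* at 49.1, 2.90, 49.9 and 23.0 FPKM. Of 8 further astrocyte genes, 5 were lower between the wild-type bones and 2 higher between the parietal bones, and *Ntsr2* was lower between the frontal bones. The 3 highest were *Aldoc* at 67.4, 13.3, 47.0 and 45.8 FPKM, *S100b*, which cartilage and Schwann cells also express, at 24.6, 37.6, 34.9 and 36.4 FPKM, and *Fgfr3*, a growth factor receptor also present in cartilage, at 16.3, 21.3, 15.1 and 16.7 FPKM.

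Of 6 further oligodendrocyte genes none was called between the wild-type bones, but only 2 reached 1 FPKM in either library and could be called. By any amount, 5 of the 6 were lower and 1 was higher in wild-type parietal than in wild-type frontal bone. *Ermn* was called higher in labelled *Twist1*+/- parietal than in wild-type parietal bone and in *Twist1*+/- frontal than in wild-type frontal bone. The 3 highest were *Cldn11*, which the arachnoid barrier also expresses, at 22.2, 34.6, 24.2 and 20.2 FPKM, *Aspa* at 3.75, 3.67, 2.36 and 1.26 FPKM and *Ermn* at 0.962, 0.184, 3.01 and 1.16 FPKM. *Opalin*, a gene of mature oligodendrocytes, was at 0.439, 0, 0.722 and 0.0916 FPKM and was thus listed at 0 in wild-type parietal bone. Of 4 further myelin genes of both glia, 3 were lower between the wild-type bones and 1 was higher in labelled *Twist1*+/- parietal than in wild-type parietal bone. Among the highest were *Mal* at 8.07, 2.11, 7.78 and 3.47 FPKM and *Ugt8a* at 1.79, 0.430, 2.17 and 0.725 FPKM.

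Genes that mark particular neurons were read in the same way. All 4 genes of olfactory bulb projection neurons were lower in wild-type parietal than in wild-type frontal bone, and 2 of them, *Doc2g* and *Cdhr1*, were higher in labelled *Twist1*+/- parietal than in wild-type parietal bone. *Cdhr1* was also lower in labelled *Twist1*+/- parietal than in *Twist1*+/- frontal bone. The 3 highest were *Doc2g* at 38.0, 1.88, 14.0 and 11.4 FPKM, *Cdhr1* at 24.0, 0.280, 15.8 and 3.30 FPKM and *Eomes* at 5.22, 0.282, 2.12 and 0.730 FPKM. The summed FPKM of the 4 was 70.0, 2.49, 32.9 and 16.1, the same order of libraries as for *Gad1* and *Slc17a7*. None of the 6 cerebral cortex neuron genes reached 1 FPKM in either wild-type library, 1 gene was called, *Lamp5*, lower in labelled *Twist1*+/- parietal than in *Twist1*+/- frontal bone, and the 3 highest were *Lamp5* at 0.925, 0.0940, 1.93 and 0.512 FPKM, *Tbr1* at 0.915, 0.0974, 0.434 and 0.335 FPKM and *Rorb* at 0.489, 0.114, 0.745 and 0.254 FPKM. Of 6 genes of cerebellar neurons, 1 was lower between the wild-type bones, 2 were higher between the parietal bones, 2 were higher in *Twist1*+/- frontal than in wild-type frontal bone and 1 was lower in labelled *Twist1*+/- parietal than in *Twist1*+/- frontal bone. The 3 highest were *Cbln1* at 4.79, 0.931, 4.45 and 1.57 FPKM, *Neurod1* at 1.48, 2.27, 4.51 and 1.38 FPKM and *Pcp2* at 0.706, 0.328, 2.14 and 3.13 FPKM.

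Genes of olfactory sensory neurons, which lie in the nasal lining, had another order of libraries. Of 8, 7 were lower in wild-type parietal than in wild-type frontal bone, 6 were higher in labelled *Twist1*+/- parietal than in wild-type parietal bone and 5 were higher in *Twist1*+/- frontal than in wild-type frontal bone. Between the bones of *Twist1*+/- mice 3 were lower in the labelled parietal library. The highest were *Omp* at 34.5, 1.86, 116 and 58.8 FPKM, *Gng13* at 43.3, 1.39, 106 and 77.3 FPKM and *Stoml3* at 21.8, 1.32, 68.3 and 17.9 FPKM. Of 12 genes of peripheral sensory and autonomic neurons, 3 reached 1 FPKM in wild-type frontal and 2 in wild-type parietal bone. The highest were *Npy* at 34.9, 5.72, 11.9 and 9.02 FPKM, *Th* at 11.3, 0.310, 5.77 and 2.31 FPKM and *Scn9a* at 0.622, 0.178, 3.78 and 1.01 FPKM, and each is also made within the olfactory system. By the 3-fold rule *Npy* and *Th* were lower and *Calca* higher in wild-type parietal than in wild-type frontal bone, *Th* and *Scn9a* were higher between the parietal bones, *Scn9a* and *Prph* were higher between the frontal bones, and *Scn9a* was lower between the bones of *Twist1*+/- mice. The defining sensory genes *Trpv1* and *Scn10a* and the autonomic gene *Dbh* stayed below 0.1 FPKM in every library.

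**Figure D4:**
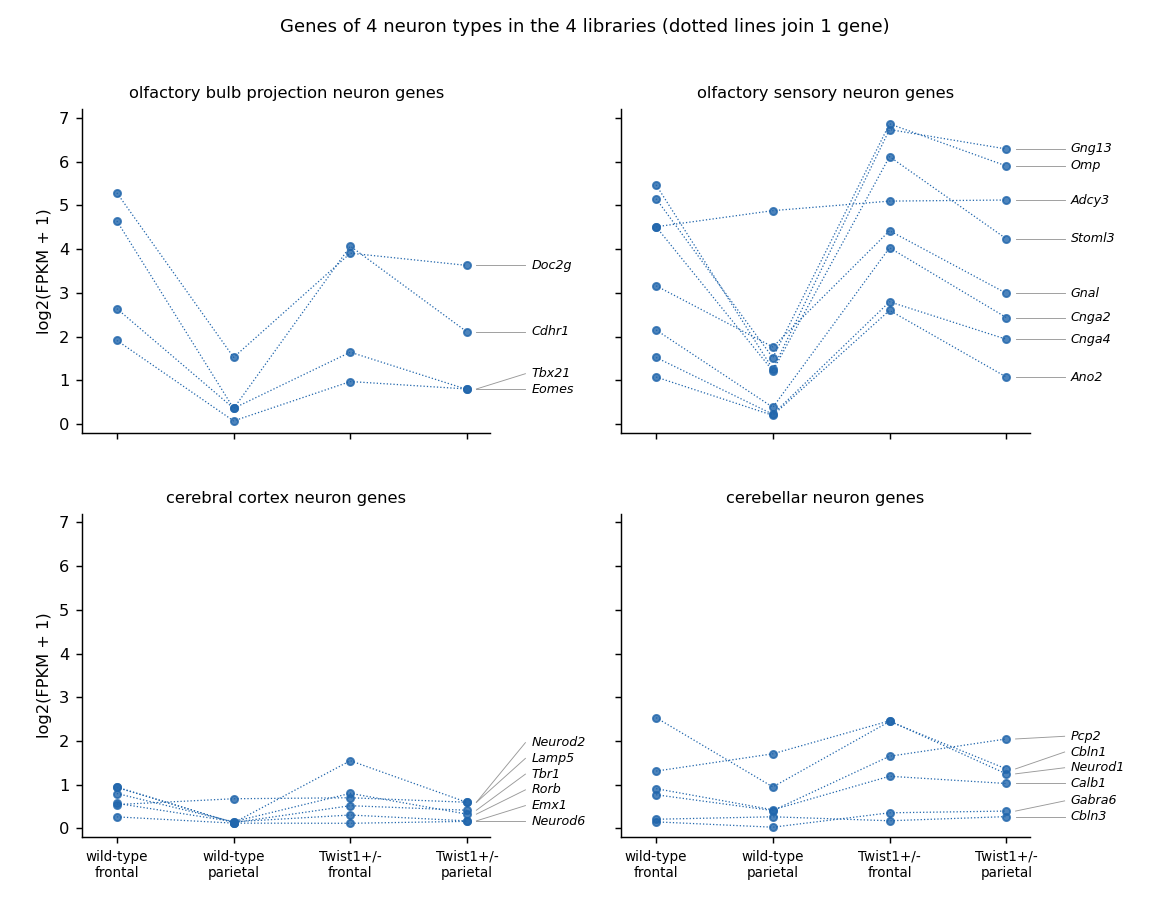
Log2(FPKM + 1) of genes of 4 neuron types (panels) in the 4 libraries (horizontal axis), each point being 1 gene in 1 library and dotted lines joining the points of a gene. Apart from *Adcy3*, olfactory sensory neuron genes peak in *Twist1*+/- frontal bone and are lowest in wild-type parietal bone, while olfactory bulb genes peak in wild-type frontal bone and cortex genes stay low throughout.

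Genes of other tissues also differed between the libraries. The 8 skeletal muscle genes summed to 88.3, 2444, 1050.2 and 1433 FPKM, lowest in wild-type frontal and highest in wild-type parietal bone, with *Myl1* at 12.0, 695, 212 and 233 FPKM, *Tnnc2* at 11.9, 645, 174 and 243 FPKM and *Acta1* at 30.0, 391, 175 and 322 FPKM as the highest. Of these, 7 were higher in wild-type parietal than in wild-type frontal bone and all 8 were higher in *Twist1*+/- frontal than in wild-type frontal bone, and *Myh4* was higher between the parietal bones. The 6 meningeal genes summed to 2024, 105, 366 and 477 FPKM, with *Ptgds* at 1975, 52.8, 327 and 428 FPKM, *Foxc1* at 14.0, 18.5, 17.5 and 20.4 FPKM and *Zic1* at 10.3, 17.7, 7.59 and 17.6 FPKM. Of these, 3 were lower in wild-type parietal than in wild-type frontal bone, the same 3 were lower in *Twist1*+/- frontal than in wild-type frontal bone, and *Ptgds* was higher between the parietal bones. The 8 bone genes summed to 11585, 18932, 10756 and 15989.7 FPKM and 1 of them, *Ibsp*, was called, higher in wild-type parietal than in wild-type frontal bone. The part of olfactory bulb, nasal, muscle and meningeal tissue in the differences of the 32 genes was not tested.

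Little of the annotated sequence of these genes was shared, by exact match, with annotated coding transcripts of other genes. Near matches and copies elsewhere in the genome were not searched. For 31 of the 32 genes, all but *Map2*, a transcript was found in the mm9 annotation, and *Gad1* shared 1.10% of its windows of 75 bases with a transcript of another gene, *Gad1-ps*. The share was 0.113% for *Slc1a2* and 0.0847% for *Mbp*, and it was 0 for the others. Exons of *Cnp*, *Prx* and *Slc1a2* overlap those of another gene on the opposite strand.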

How the data were processed

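Poly(A) RNA from frontal and parietal bone of wild-type and *Twist1*+/- mice was sequenced with a stranded kit as single-end reads of 75 bases. The authors aligned the reads to mm9 with STAR 2.4.2a and deposited FPKM values computed by Cuffdiff of Cufflinks 2.2.1. The Cuffdiff strand and scaling options are not given in the sources used here. Depth is not given by FPKM, and relative depth was estimated as the most frequent ratio among genes between 0.005 and 0.1 FPKM in both libraries.

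The members and gene lists were chosen with earlier results of these data known. Libraries were grouped by genotype and bone from the labels, and 4 comparisons were made. With 1 library per group no p-value or SD was computed. A gene was called when the FPKM ratio exceeded 3-fold and the higher value reached 1 FPKM. Every member is named with its value in all 4 libraries, and of each further list the counts called and the 3 highest genes are given, with other genes of those lists named after their values were seen, and some genes of those lists are not reported here. As alternatives, 1 or 0.1 FPKM was added to every value, the floor was dropped or set to 5 FPKM, and the others were thresholds of 2-fold and 8-fold, scaling to the median ratio or to *Gapdh*, and subtraction of the median log2 ratio of 20 GC groups. Positions, GC content and shared sequence came from the GENCODE annotation of mm9, and promoters from RefSeq on GRCm38.p6. Python 3.11.15 with pandas 2.3.3 and numpy 2.4.6 was used.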

Additional observations from a re-analysis of the deposited data

Results flagged for a closer look

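*Slc17a7*, the vesicular glutamate transporter of cortical and olfactory bulb neurons, was called in opposite directions by genotype in the 2 bones. Its log2 ratio of *Twist1*+/- to wild type was 1.71 in parietal bone, where the library is the one labelled *Twist1*+/-, and -1.65 in frontal bone. With 1 library per genotype and bone the difference between the bones was not tested. Adding 1 FPKM to both values brought the ratios to 1.34 and -1.58, under 3-fold in both bones, and the GC subtraction brought the parietal ratio to 1.19.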

How the results depend on the processing

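No paired analysis was possible because each group holds 1 library, so that no 2 replicate numbers are shared between groups. An additive fit of genotype and bone, which would treat the genotypes as replicates of the bones, was not run. Between the wild-type bones 22 genes were called, and 8 with a threshold of 8-fold. Between the parietal bones 10 were called, against 6 when 1 FPKM was added, 6 with a floor of 5 FPKM, 17 at 2-fold and 2 at 8-fold. Between the frontal bones 3 were called, against 1 when 1 FPKM was added, 6 at 2-fold and 0 at 8-fold. Between the bones of *Twist1*+/- mice 5 were called, against 3 when 1 FPKM was added, 15 at 2-fold and 0 at 8-fold. These changes follow from the construction of each alternative, which compresses ratios of low values or moves the floor or threshold. All other alternatives listed with the methods gave counts within 1.5 times. Of 640 log2 ratios of single members recomputed, 596 kept their sign and their side of the threshold, 22 lost a call, 7 gained a call and 15 uncalled ones changed sign. *Gapdh* itself had a log2 ratio of 0.44 between the wild-type bones and -0.39 between the parietal bones, which scaling to it takes off every gene. FPKM does not give the number of reads behind values under 1 FPKM.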

Other observations

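Genes of microglia, the resident macrophages of the brain, did not share one order of libraries. The 3 highest of 6 were *Tmem119*, which osteoblasts also express, at 110.1, 96.7, 90.2 and 125 FPKM in wild-type frontal, wild-type parietal, *Twist1*+/- frontal and labelled *Twist1*+/- parietal bone, *Gpr34* at 2.35, 6.85, 2.64 and 1.80 FPKM and *Cx3cr1* at 5.84, 4.89, 5.14 and 3.74 FPKM. *Sall1* and *Siglech* were lower by more than 3-fold in wild-type parietal than in wild-type frontal bone. Between the parietal bones *Gpr34* was lower and *Sall1* higher in the labelled *Twist1*+/- library, *Sall1* was lower in it than in *Twist1*+/- frontal bone, and none was called between the frontal bones.

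Of 5 genes of choroid plexus and ependyma, which make and move cerebrospinal fluid, the 3 highest were *Ttr* at 20.02, 23.7, 10.50 and 9.23 FPKM, *Ccdc153* at 1.17, 0.314, 3.46 and 3.56 FPKM and *Kcnj13* at 3.04, 0.251, 1.40 and 0.329 FPKM. *Ccdc153* and *Kcnj13* were called lower in wild-type parietal than in wild-type frontal bone. *Ccdc153* was higher in labelled *Twist1*+/- parietal than in wild-type parietal bone, *Kcnj13* was lower in labelled *Twist1*+/- parietal than in *Twist1*+/- frontal bone, and none was called between the frontal bones.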
